A study of Homo sapiens with 4 samples.

Results

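The ADAM and ADAMTS proteases were followed through 4 groups of SCP2 cells as 10 genes: ADAM8, ADAM9, ADAM10, ADAM12, ADAM15, ADAM17, ADAM19, ADAMTS1, ADAMTS5 and ADAMTS6. They were chosen by name, with earlier results of these data known, as the probe sets annotated with exactly 1 of these symbols. This gave 29 of the 41097 probe sets that carry a single symbol, and 10 of 19775 genes. SCP2 is a human breast cancer line, one of the single-cell-derived, bone-colonising progenies of MDA-MB-231, so each group stems from 1 clone. The groups were SCP2 cells overexpressing DLC1 and treated with TGFbeta, the same cells without TGFbeta, SCP2 cells with a vector control treated with TGFbeta, and vector control cells without it. TGFbeta is a cytokine released from bone matrix. The dose and time of TGFbeta, and the promoter that drives DLC1, are not stated in the labels. Each group was measured on 1 array, so no difference below has a replicate check, and no p-value or SD is given.

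ADAM proteases are membrane-anchored metalloproteases that cut other membrane proteins close to the cell surface, a step called ectodomain shedding. It frees growth factors such as those that bind the EGF receptor, and it starts Notch signalling. ADAMTS proteases are their secreted relatives, which bind to matrix through thrombospondin repeats and cleave proteoglycans and other matrix proteins. In breast cancer cells of the MDA-MB-231 family, ADAMTS1 is known from bone metastasis work as a protease that releases EGF-like growth factors.

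Values are intensities in arbitrary units on a linear scale, deposited with 2 decimals, and differences are given as folds or as log2 differences. For genes with several probe sets, the one brightest on average stood for the gene. A gene passed the filter on dim values if at least 1 of its 4 intensities was 0.38 or more, where 0.38 is the median intensity, and 13136 genes and all 10 members did. A gene is said to have risen or fallen where the difference reached 2-fold, a log2 difference of 1. Of the 29 probe sets of the members, 22 passed the same filter. Intensities of different probe sets depend on the probes, so levels are compared between arrays and never between genes. Each of the 4 differences shares an array with another pair of them, so they are not independent, and RNA per cell cannot be told apart from the share of cells that express a gene.

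The arrays themselves were alike in depth of signal, with medians of 0.38 to 0.39. Markers of the line were bright on all arrays, VIM at 160.3 to 205.05 and CD44 at 56.33 to 84.08. The leukocyte markers PTPRC and CD3E, the endothelial markers CDH5 and VWF and the stromal markers DCN and LUM stayed under 0.38 on every array, while CD14 read 1.08 to 1.67 and PECAM1 0.67 to 0.85. Of the luminal markers, EPCAM and GATA3 were above the filter on every array, and PGR and CDH1 were under it, with ESR1 at 0.39 to 0.46. DLC1 itself did not settle the labels. Its probe set 210762_s_at was 0.54 higher with TGFbeta and 0.93 higher without it on the log2 scale in the arrays labelled DLC1, short of 2-fold, whereas 224822_at gave -0.51 and -0.31. A dim set that passed the filter on 1 array, 220512_at, was lower in the arrays labelled DLC1, with log2 differences of -1.11 with TGFbeta and -0.53 without it. The groups are therefore called the arrays labelled DLC1. The gap between 3' and 5' beta-actin control probe sets, a sign of RNA quality, was 2.83 to 3.26 on the log2 scale, with 3' higher. For the GAPDH control it was 0.35 to 0.39. The beta-actin gap differed with TGFbeta by -0.08 in the arrays labelled DLC1 and by -0.43 in the vector arrays. Between the array labelled DLC1 and the vector array it differed by 0.2 with TGFbeta and by -0.15 without it. For DLC1 against vector, the 3' control of 18S ribosomal RNA was 0.07 higher with TGFbeta and 0.43 higher without it. The part of these controls in the differences below was not tested.

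ADAM19, also called meltrin beta, is a membrane protease known, from work in mouse, to shed neuregulins. Its probe set 209765_at read 1.18 with TGFbeta and 0.15 without it in the arrays labelled DLC1, and 3.96 with TGFbeta and 0.51 without it in the vector arrays. This set was higher with TGFbeta in both backgrounds, and within each state the array labelled DLC1 was the lower one. The value of 0.15 is under the filter, and 0.14 was the 25th percentile on the arrays. Any difference against it therefore depends on how dim values are handled. The log2 difference with TGFbeta was 2.98 in the arrays labelled DLC1 and 2.96 in the vector arrays. With 0.1 added to every value before log2 it was 2.36 in the arrays labelled DLC1 and 2.73 in the vector arrays. For DLC1 against vector the log2 difference was -1.75 with TGFbeta and -1.77 without it, and -1.67 and -1.29 with 0.1 added. With the mean of both ADAM19 probe sets it was -0.84 with TGFbeta and -0.93 without it, short of 2-fold.

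The gap between the TGFbeta differences of ADAM19 in the 2 backgrounds was 0.02 on the log2 scale, and -0.38 with 0.1 added before log2. Neither its size nor its direction is settled by these arrays. The array labelled DLC1 with TGFbeta, at 1.18, was 2.31-fold above the untreated vector array, at 0.51.

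The second ADAM19 probe set, 221128_at, did not show these differences. It read 0.41 and 0.32 in the arrays labelled DLC1 with and without TGFbeta, and 0.39 and 0.34 in the vector arrays with and without it. Its differences with TGFbeta were 0.36 in the arrays labelled DLC1 and 0.20 in the vector arrays, with the higher value under TGFbeta in each. For DLC1 against vector it gave 0.07 with TGFbeta and -0.09 without. In the 6388 genes with several probe sets past the filter, the brightest and the next brightest parted by a median of 0.10 for TGFbeta in the arrays labelled DLC1 and 0.13 in the vector arrays, and 9 in 10 of them parted by at most 0.31 and 0.36. ADAM19 parted by 2.62 and 2.76. Which transcripts each set reads was not examined here, and 221128_at stayed close to 0.38 on every array.

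ADAMTS6 encodes a secreted protease known, from mice and cultured cells, to act on fibrillin microfibrils. Its probe set 237411_at read 4.23 with TGFbeta and 1.71 without it in the arrays labelled DLC1, and 7.29 with TGFbeta and 3.79 without it in the vector arrays. Both arrays with TGFbeta lay above both without. The gene rose 2.47-fold with TGFbeta in the arrays labelled DLC1. In the vector arrays it was 1.92-fold higher, short of 2-fold. Against vector it fell 2.22-fold without TGFbeta, and was 1.72-fold lower with it.

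A second ADAMTS6 probe set, 1570351_at, went the same way in all 4 differences with other sizes. It read 0.42 and 0.29 in the arrays labelled DLC1 with and without TGFbeta, and 1.83 and 0.72 in the vector arrays with and without it. Here both arrays labelled DLC1 lay below both vector arrays. With TGFbeta it was 1.45-fold higher in the arrays labelled DLC1 and rose 2.54-fold in the vector arrays. Against vector it fell 4.36-fold with TGFbeta and 2.48-fold without it. The TGFbeta response was therefore larger in the arrays labelled DLC1 by 237411_at, with a gap of 0.36 on the log2 scale, and smaller by 1570351_at, with a gap of -0.81. The 2 sets agree on the direction of each effect and disagree on whether the difference with TGFbeta was larger in the arrays labelled DLC1. The remaining set, 220866_at, read 0.13 to 0.16 on all arrays.

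In the levels of all 29 probe sets by array, ADAM19 and ADAMTS6 show the tallest steps between a TGFbeta array and its untreated partner, and ADAMTS1 a step between the backgrounds.

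**Figure D1:**
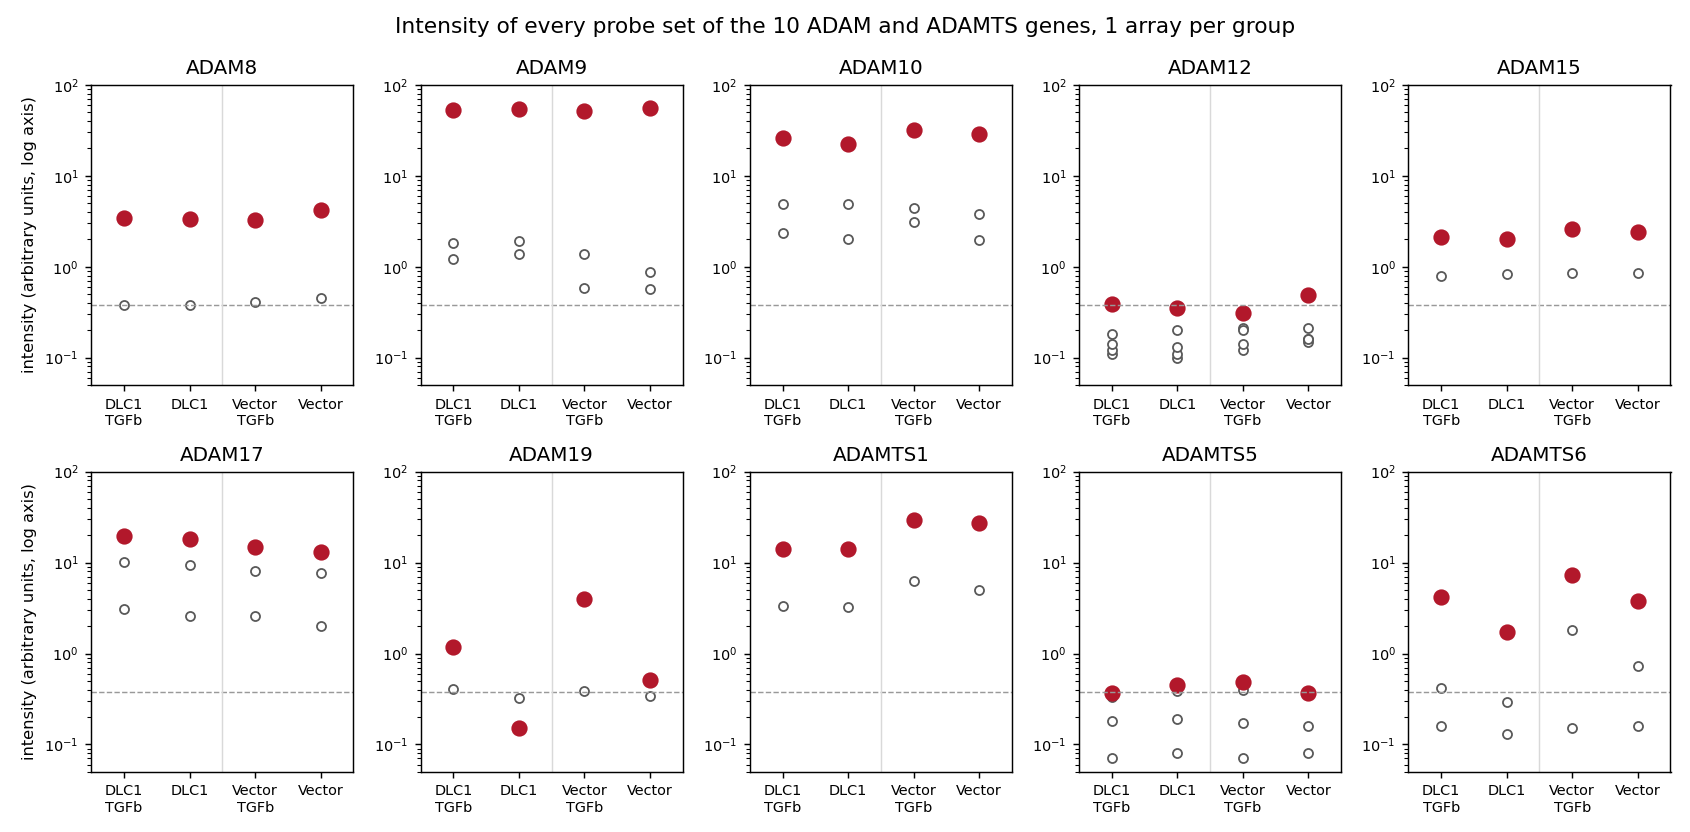
Intensity of each probe set (log axis, arbitrary units) on the 4 arrays, 1 panel per gene and 1 array per group, with the brightest probe set filled and the others open; the dashed line is the filter of 0.38. ADAM19 reads 1.18, 0.15, 3.96 and 0.51 from left to right, and ADAMTS1 sits at 14.14 and 13.99 in the arrays labelled DLC1 and at 29.4 and 27.39 in the vector arrays.

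The promoter sequences shown are those of ADAM19 and ADAMTS6, the members past 2-fold with TGFbeta in at least 1 background by their brightest probe sets. ADAMTS6 passed 2-fold in 1 of the backgrounds by its brightest probe set, and was included with its values known. RefSeq promoter entries (GRCh38.p14) were found for 7 of the 10 members. The 250 bases before each annotated start are given on the gene's strand, 5' to 3', and matches to any of 3 short motifs on either strand are in capitals. The first is CAGAC, a string bound by SMAD proteins, which carry the TGFbeta signal. TGACTCA is the string of AP-1 factors. GGAATG is that of TEAD proteins. The matches printed do not overlap, and a match is a string of letters and no measured binding. ADAM19 is shown for chr5:157575776-157576025 and ADAMTS6 for chr5:65481921-65482170, both on the minus strand.
ADAM19: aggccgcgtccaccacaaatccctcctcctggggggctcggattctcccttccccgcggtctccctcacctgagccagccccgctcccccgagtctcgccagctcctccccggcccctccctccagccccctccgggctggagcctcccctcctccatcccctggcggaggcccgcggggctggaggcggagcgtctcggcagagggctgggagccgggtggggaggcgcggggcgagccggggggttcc
ADAMTS6: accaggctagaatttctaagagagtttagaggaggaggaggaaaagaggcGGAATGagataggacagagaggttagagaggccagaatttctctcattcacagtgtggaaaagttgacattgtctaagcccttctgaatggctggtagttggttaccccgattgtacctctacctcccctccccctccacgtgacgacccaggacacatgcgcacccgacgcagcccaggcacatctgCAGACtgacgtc
The ADAM19 window, with 76.4% G and C, holds none of the 3 strings on either strand, so nothing is in capitals there. The ADAMTS6 window, with 52.4% G and C against a median of 58.0% over 35116 promoters, holds 1 CAGAC that begins 12 bases before the start and 1 GGAATG that begins 200 bases before it. Of all these promoters, 38.0% hold CAGAC, 11.9% hold GGAATG and 4.2% hold TGACTCA. Among the 7 members the numbers are 4 for CAGAC, 2 for GGAATG and 0 for TGACTCA.

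The plot of TGFbeta differences sets the members against all genes past the filter. The members were chosen with earlier results of these data known, so the shares set beside their counts are no test of the family. In the arrays labelled DLC1, 2 of 10 members rose, ADAM19 and ADAMTS6, where 0.792% of 13136 genes did. In the vector arrays 1 of 10 rose, ADAM19, where 1.21% of genes did. With the mean of a gene's probe sets 1 rose in the arrays labelled DLC1, ADAM19, and after centring on housekeeping genes 2 rose in the vector arrays, ADAM19 and ADAMTS6. No share of all genes is given for these settings. The centring subtracted the median level of 8 housekeeping genes on each array, which rests on those of middle brightness. It moved ADAMTS6 in the vector arrays from 0.94 to 1.06, while the 8 genes' own median difference there was 0.03. No member fell with TGFbeta in either background, and 0.107% of all genes fell in the arrays labelled DLC1 and 0.693% in the vector arrays. Members' median log2 differences were 0.09 in the arrays labelled DLC1 and 0.14 in the vector arrays, beside -0.01 and -0.03 over all genes. Both arrays with TGFbeta lay above both without for 2 of 10 members, ADAM19 and ADAMTS6, beside 11.8% of genes, and 1 member, ADAM9, had both below, beside 14.3%. By probe sets, 2 of 22 rose in the arrays labelled DLC1, beside 0.73% of 24399, and 2 in the vector arrays, beside 1.25%. None fell, beside 0.0943% and 0.529%. At a lower size rule of 1.5-fold the same 2 members were higher in the arrays labelled DLC1, beside 2.31% of genes, and none was lower, beside 1.06%. In the vector arrays ADAM19 and ADAMTS6 were higher by this rule, beside 3.14%, and ADAM12, which is dim, was lower, beside 2.91%.

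**Figure D2:**
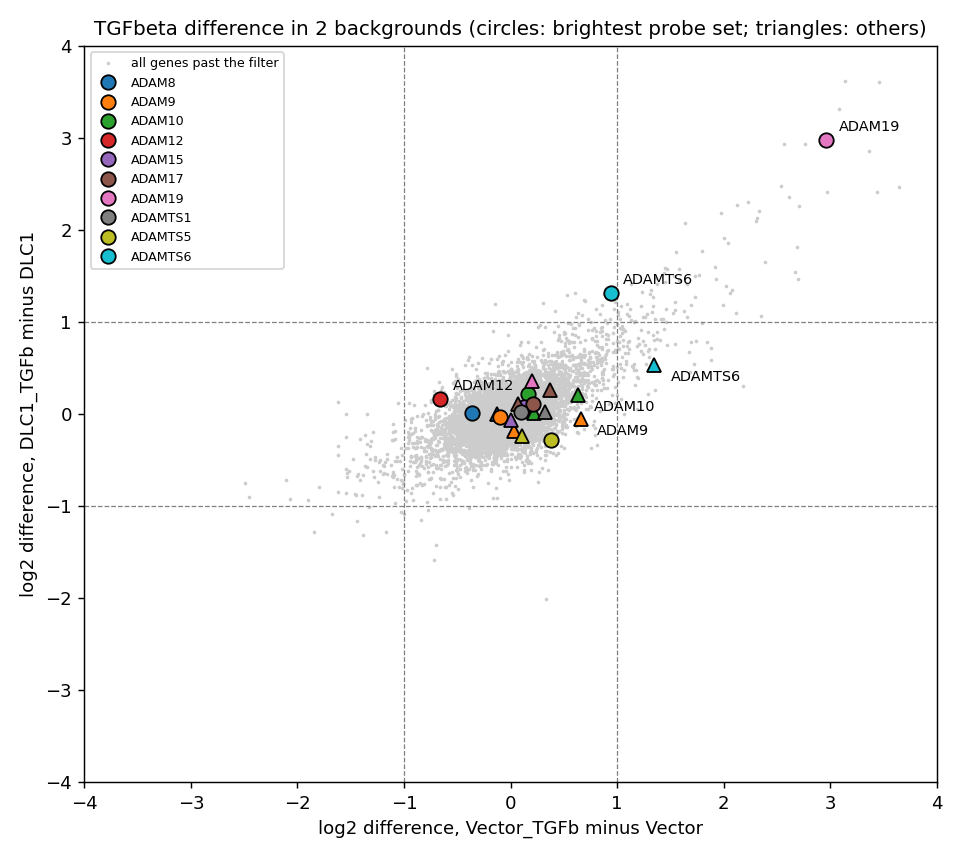
Log2 difference with TGFbeta in the arrays labelled DLC1 (vertical) against that in the vector arrays (horizontal), for all genes past the filter (grey) and for the members' 22 probe sets past it (coloured; circles are the brightest sets, triangles the others; dashed lines mark 2-fold). In the arrays labelled DLC1 and in the vector arrays, ADAM19 lies at 2.98 and 2.96, its other set at 0.36 and 0.20, and the ADAMTS6 sets at 1.31 and 0.94 and at 0.53 and 1.35.

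ADAMTS1, a secreted protease that cleaves versican and aggrecan, differed between the arrays labelled DLC1 and the vector arrays, and little with TGFbeta by its brightest set. Its probe set 222162_s_at read 14.14 with TGFbeta and 13.99 without it in the arrays labelled DLC1, and 29.40 with TGFbeta and 27.39 without it in the vector arrays. Both arrays labelled DLC1 lay below both vector arrays, and within each background the values were nearly equal. Against vector it fell 2.08-fold in the TGFbeta arrays, and was 1.96-fold lower in the untreated ones, just short of 2-fold.

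The other ADAMTS1 probe set, 222486_s_at, read 3.29 and 3.25 in the arrays labelled DLC1 with and without TGFbeta, and 6.27 and 5.01 in the vector arrays with and without it. These pairs did not overlap either. Against vector the set was 1.91-fold lower in the TGFbeta arrays and 1.54-fold lower in the untreated ones. The difference with TGFbeta in the brightest set was 0.02 in the arrays labelled DLC1 and 0.10 in the vector arrays, and the other set gave 0.02 and 0.32.

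Among the membrane sheddases, ADAM17, the enzyme that releases tumour necrosis factor and several EGF receptor ligands, leaned the other way. Its probe set 213532_at read 19.67 with TGFbeta and 18.27 without it in the arrays labelled DLC1, and 14.95 with TGFbeta and 12.92 without it in the vector arrays. For DLC1 against vector it was 1.32-fold higher with TGFbeta and 1.41-fold higher without it. The sets 205745_x_at and 205746_s_at gave log2 differences of 0.30 and 0.26 with TGFbeta and 0.27 and 0.37 without. All 3 sets were thus higher in the arrays labelled DLC1 in each state, none by 2-fold. All 3 were also higher with TGFbeta in each background, by 0.11, 0.11 and 0.26 in the arrays labelled DLC1 and by 0.21, 0.07 and 0.37 in the vector arrays.

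ADAM10, the sheddase that starts Notch cleavage, had probe sets that did not agree. The brightest, 202603_at, read 25.76 and 22.14 in the arrays labelled DLC1 with and without TGFbeta, and 31.95 and 28.68 in the vector arrays with and without it. This set put both arrays labelled DLC1 below both vector arrays, with differences of -0.31 with TGFbeta and -0.37 without. The set 202604_x_at, whose suffix marks probes that can match other sequences, had them the other way round at 0.14 and 0.35, and 214895_s_at gave -0.38 and 0.04.

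ADAM9, a widely expressed sheddase, was level by its brightest probe set, 202381_at, which read 53.62 and 54.64 in the arrays labelled DLC1 with and without TGFbeta, and 51.45 and 55.27 in the vector arrays with and without it. The other sets, both of the kind that reads several transcripts of 1 gene, were higher in the arrays labelled DLC1. For 1570042_a_at the values were 1.21 and 1.37 in the arrays labelled DLC1 with and without TGFbeta, and 0.58 and 0.57 in the vector arrays with and without it. Against vector that set rose 2.09-fold in the TGFbeta arrays and 2.40-fold in the untreated ones. For 1555326_a_at they were 1.83 and 1.90 in the arrays labelled DLC1 and 1.37 and 0.87 in the vector arrays. Against vector this was 1.34-fold higher in the TGFbeta arrays and a 2.18-fold rise in the untreated ones. Both sets kept the arrays labelled DLC1 above the vector arrays. For DLC1 against vector without TGFbeta, the brightest and the next brightest ADAM9 set parted by 1.14 on the log2 scale, and 98.6% of the genes with several sets parted by less.

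ADAM8, known as a protease of leukocytes and of invasive tumour cells, read 3.40 and 3.38 in the arrays labelled DLC1 with and without TGFbeta, and 3.29 and 4.21 in the vector arrays with and without it. The untreated vector array stood above the other 3, which lay close together. Its other set, 205179_s_at, read 0.38 and 0.38 in the arrays labelled DLC1 and 0.41 and 0.45 in the vector arrays, again with the untreated vector array highest. ADAM15, which carries an integrin-binding motif in its disintegrin domain, read 2.11 and 2.0 in the arrays labelled DLC1 with and without TGFbeta, and 2.63 and 2.41 in the vector arrays with and without it. Its differences for DLC1 against vector were -0.32 with TGFbeta and -0.27 without, and 217007_s_at gave -0.11 and -0.03.

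ADAM12, a relative of ADAM19 known as meltrin alpha, was dim. Its brightest set, 204943_at, read 0.39 and 0.35 in the arrays labelled DLC1 with and without TGFbeta, and 0.31 and 0.49 in the vector arrays with and without it. The other 4 sets stayed between 0.10 and 0.21 on every array, under the filter. The gap of 0.82 between its TGFbeta differences, 0.16 in the arrays labelled DLC1 and -0.66 in the vector arrays, rests on these low values. ADAMTS5, an aggrecan-cleaving protease of cartilage, was dim as well, at 0.37 and 0.45 in the arrays labelled DLC1 with and without TGFbeta, and 0.48 and 0.37 in the vector arrays with and without it. Its other 3 sets read 0.07 to 0.40.

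Counted over the members, DLC1 against vector gave 2 of 10 that fell with TGFbeta, ADAM19 and ADAMTS1, where 1.64% of genes fell. Without TGFbeta 2 of 10 fell, ADAM19 and ADAMTS6, where 2.34% of genes did. Given how the members were chosen, these shares too are no test of the family. With the mean of all probe sets of a gene, also those under the filter, 0 of 10 fell in either state. For ADAMTS6 without TGFbeta this mean was -0.92. It includes 220866_at, under the filter on every array, at -0.30, while the 2 sets past the filter gave -1.15 and -1.31. After centring on housekeeping genes 1 member fell in each state, ADAM19. That centring moved the median of all genes by 0.12 with TGFbeta and by 0.19 without. The own median differences of the 8 housekeeping genes were -0.01 and -0.02, so the calls lost rest on how the centring was done. No member rose by its brightest probe set in either state, where 1.46% and 1.63% of genes rose. The medians were -0.31 with TGFbeta and -0.35 without, beside -0.02 and -0.03 over all genes. Both arrays labelled DLC1 lay below both vector arrays for 3 of 10 members, ADAM10, ADAM15 and ADAMTS1, and 33.1% of all genes did so, a share near that of the members. For ADAM17 they lay above, as for 28.7% of genes. By probe sets, 3 of 22 fell with TGFbeta, beside 1.53% of all, and 3 fell without it, beside 1.95%. Of the ADAM9 sets, 1 rose with TGFbeta, beside 1.77%, and 2 did without it, beside 2.18%. At 1.5-fold, 3 of 10 members were lower in each state, ADAM19, ADAMTS1 and ADAMTS6, beside 6.71% of genes with TGFbeta and 8.89% without. None was higher, beside 5.92% and 5.84%.

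**Figure D3:**
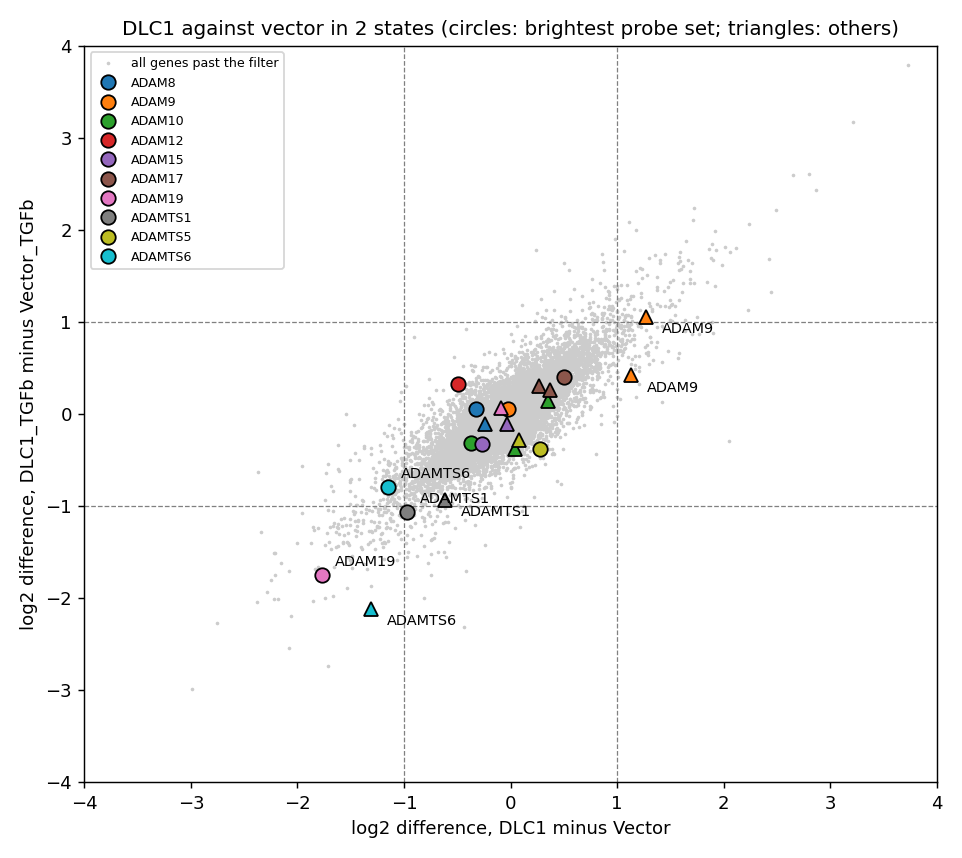
Log2 difference between arrays labelled DLC1 and vector arrays with TGFbeta (vertical) against that without it (horizontal), for all genes past the filter (grey) and the members' probe sets (coloured; circles are the brightest sets, triangles the others; dashed lines mark 2-fold). With and without TGFbeta, ADAM19 lies at -1.75 and -1.77, the ADAMTS1 sets at -1.06 and -0.97 and at -0.93 and -0.62, and the 2 ADAM9 sets that rose stand apart from its brightest set near 0.

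No member had a TGFbeta response that differed 2-fold between backgrounds by its brightest probe set, where 0.19% of genes had one at least 2-fold higher in the arrays labelled DLC1 and 0.175% one at least 2-fold lower. At 1.5-fold, 1 member was higher, ADAM12, beside 1.79% of genes, and 1 was lower, ADAMTS5, beside 1.29%. The largest gaps were those of the dim genes, 0.82 for ADAM12 and -0.66 for ADAMTS5. ADAM8 and ADAMTS6 both gave 0.36, and the other 6 members stayed between -0.10 and 0.08.

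Further members of the families mostly stayed within 2-fold. Of the other ADAM genes listed, 4 of 12 measured passed the filter and none changed 2-fold in any of the 4 differences. The largest among these 4 were -0.60 for ADAM11 with TGFbeta in the vector arrays, and -0.62 for ADAM20 in DLC1 against vector with TGFbeta. Of the other ADAMTS and ADAMTS-like genes, 13 of 21 measured passed, and 1 changed. This was ADAMTS3, which processes procollagen. It read 0.25 and 0.26 in the arrays labelled DLC1 with and without TGFbeta, and 0.66 and 0.59 in the vector arrays with and without it, a fall of 1.40 and 1.18 on the log2 scale. Both lower values were under the filter. That is 1 of 13 genes in each state, beside 1.64% of all genes that fell with TGFbeta and 2.34% without it. For DLC1 against vector, ADAMTS15 gave -0.37 with TGFbeta and -0.88 without, and ADAMTS17 gave 0.88 and 0.39. The medians of the ADAMTS list were 0.03 and 0.06 with TGFbeta in the arrays labelled DLC1 and in the vector arrays, and -0.17 and -0.08 for DLC1 against vector with and without it. ADAMTS12 was higher by 0.45 and 0.46, and ADAMTS9 gave -0.24 and -0.47.

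Genes that inhibit or mature the proteases mostly stayed within 2-fold too. All 21 passed the filter, and none rose or fell with TGFbeta in either background. For DLC1 against vector, A2M, which encodes a plasma protease inhibitor, rose by 1.77 without TGFbeta and gave 0.87 with it. It alone of the 21 rose without TGFbeta, beside 1.63% of all genes. It read 0.55 and 0.85 in the arrays labelled DLC1 with and without TGFbeta, and 0.30 and 0.25 in the vector arrays with and without it, both under the filter. TIMP3, the tissue inhibitor that blocks ADAM17 and ADAMTS proteases, read 14.43 and 20.51 in the arrays labelled DLC1 with and without TGFbeta, and 24.71 and 35.68 in the vector arrays with and without it. Its differences were -0.51 with TGFbeta in the arrays labelled DLC1, -0.53 with it in the vector arrays, and -0.78 and -0.80 for DLC1 against vector with and without TGFbeta, so that all 4 lay below 0 and within 2-fold. The medians of this list were 0.12 and 0.15 with TGFbeta in the arrays labelled DLC1 and in the vector arrays, and -0.04 and 0.03 for DLC1 against vector with and without TGFbeta. FURIN, a convertase that removes the inhibitory prodomain, gave 0.96 with TGFbeta in the arrays labelled DLC1 and 0.44 in the vector arrays. RHBDF1, which encodes an iRhom that carries ADAM17 through the secretory pathway, gave 0.50 for DLC1 against vector with TGFbeta and 0.36 without.

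Substrates shed by ADAM10 and ADAM17 went both ways, with 31 of 38 measured genes past the filter. With TGFbeta, 1 rose in the arrays labelled DLC1 and 1 in the vector arrays, in each case PTPRK, a receptor phosphatase gene, which read 38.96 with TGFbeta and 17.23 without it in the arrays labelled DLC1, and 49.27 with TGFbeta and 19.48 without it in the vector arrays. The second PTPRK set, 233609_at, gave 0.81 in the arrays labelled DLC1, short of 2-fold, and 1.20 in the vector arrays. No gene of the list fell in the arrays labelled DLC1. By their brightest sets 3 fell in the vector arrays, namely EREG, KITLG and CSF1, which encode growth factors. Other CSF1 sets past the filter stayed within 2-fold there, 210557_x_at at -0.60 and 211839_s_at at -0.18. Of all genes, 0.792% rose and 0.107% fell in the arrays labelled DLC1, and 1.21% and 0.693% in the vector arrays. EREG read 0.14 with TGFbeta and 0.79 without it in the vector arrays, so its size of change rests on a value under the filter. For DLC1 against vector, NRG1, the neuregulin gene, fell by 1.55 with TGFbeta and by 1.52 without. It read 7.55 and 8.76 in the arrays labelled DLC1, and 22.12 and 25.18 in the vector arrays. Its other 4 sets past the filter stayed within 2-fold, at -0.49 to 0.08 with TGFbeta and -0.77 to 0.11 without. Against vector HBEGF, an EGF receptor ligand gene, fell by 1.16 without TGFbeta and gave -0.92 with it. The other HBEGF set past the filter, 203821_at, gave -1.26 and -0.83. EGF fell by 1.14 against vector without TGFbeta, reading 0.29 in the array labelled DLC1, under the filter, and 0.64 in the vector array. CSF1 was 1.65 higher in the array labelled DLC1 than in the vector array, both with TGFbeta, by its brightest set, while 210557_x_at gave 0.77 and 211839_s_at, a dim set, 0.18. In all, for DLC1 against vector, 1 rose and 1 fell in the presence of TGFbeta, beside 1.46% and 1.64% of all genes. In its absence 0 rose and 3 fell, beside 1.63% and 2.34%. The list's medians were -0.09 with TGFbeta and -0.18 without.

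Substrates of ADAMTS proteases had medians of 0.20 and 0.24 with TGFbeta in the arrays labelled DLC1 and in the vector arrays, and of -0.34 and -0.28 for DLC1 against vector with and without TGFbeta, over 14 of 21 measured genes past the filter. With TGFbeta, 1 rose in each background and none fell. These were THBS1, which encodes a matrix protein that activates TGFbeta, by 1.21 in the arrays labelled DLC1, and FN1, the fibronectin gene, by 1.38 in the vector arrays. By the brightest sets THBS1 gave 0.31 in the vector arrays and FN1 0.89 in the arrays labelled DLC1. Of all genes, 0.792% rose in the arrays labelled DLC1 and 1.21% in the vector arrays. The other 6 THBS1 sets past the filter rose in the vector arrays, by 1.07 to 1.75. For DLC1 against vector, VCAN and TFPI2 fell with TGFbeta, and THBS1, TFPI2 and HBEGF fell without it, by their brightest sets. Of all genes, 1.64% fell against vector with TGFbeta and 2.34% without it. Against vector in the TGFbeta arrays, THBS1 gave -0.78 by its brightest set, but 4 of its other 6 sets past the filter fell. These 6 sets gave -1.53 to -0.78 there, and -1.64 to -0.54 against vector in the untreated arrays. VCAN, the versican gene and a substrate of ADAMTS1, read 0.27 and 0.30 in the arrays labelled DLC1 with and without TGFbeta, and 0.54 and 0.48 in the vector arrays with and without it, with the lower values under the filter. Against vector TFPI2, a protease inhibitor of the matrix, fell by 1.57 with TGFbeta and by 1.19 without, and 209277_at gave -1.87 and -1.80. HBEGF and SDC4 stand in both substrate lists, which are not independent.

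**Figure D4:**
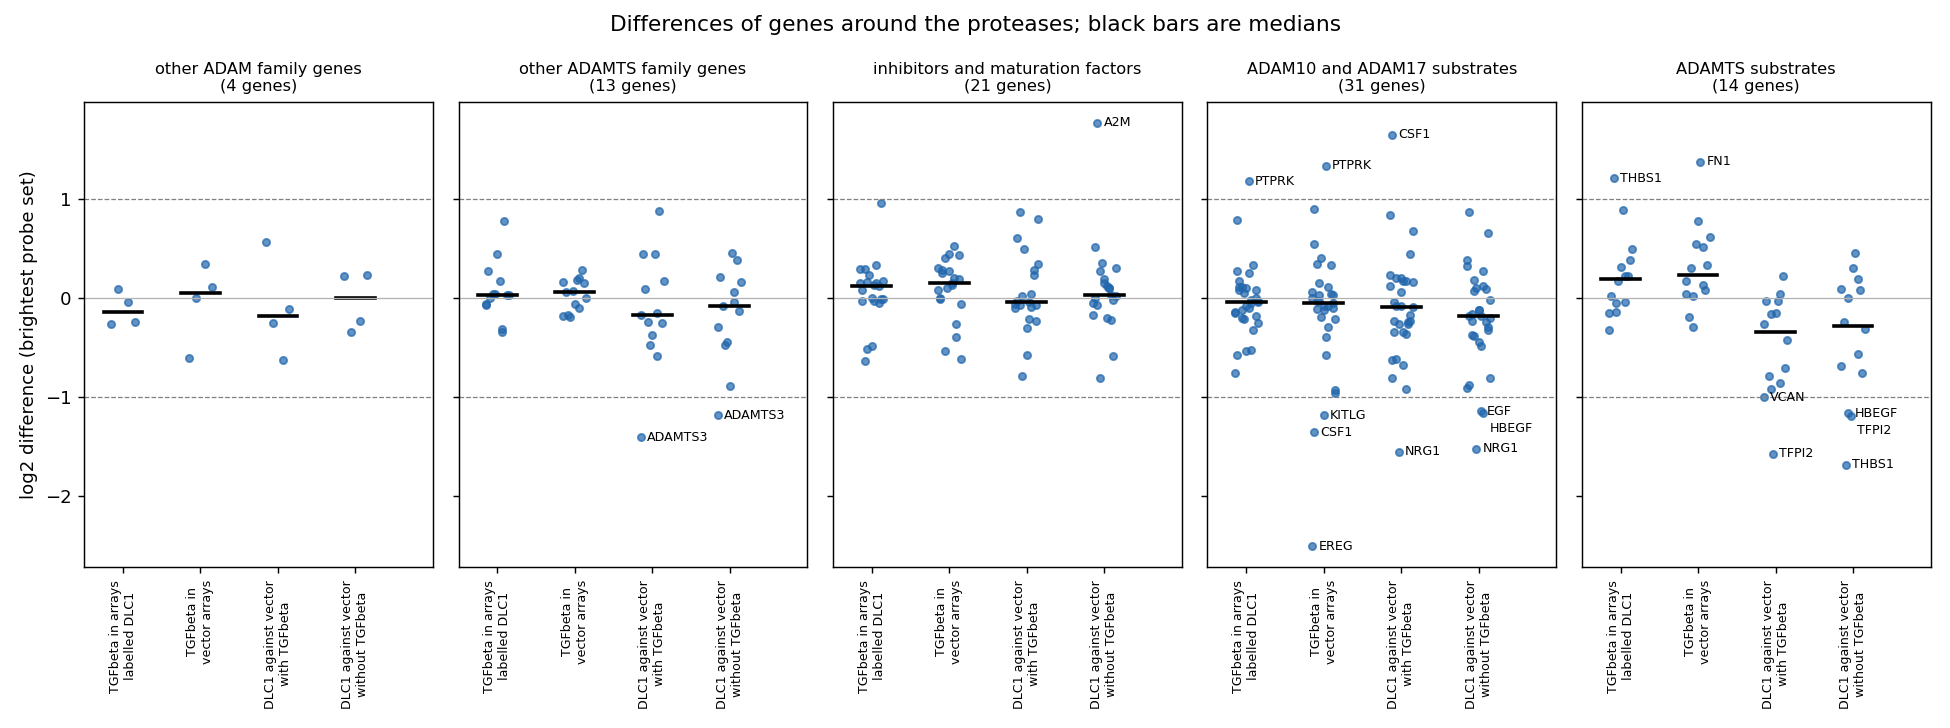
Log2 differences (vertical) of the genes past the filter in the 5 lists around the proteases, 1 point per gene by its brightest probe set, in the 4 differences named on the horizontal axis; black bars are medians and dashed lines mark 2-fold. Most points lie within 2-fold, the EREG point at -2.50 with TGFbeta in the vector arrays rests on a reading of 0.14, under the filter, and NRG1 lies at -1.55 and -1.52 for DLC1 against vector with and without TGFbeta.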

How the data were processed

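Messenger RNA of 4 groups was measured on 1 array each. The intensities deposited by the authors cover 54675 probe sets on a linear scale from 0.05 to 265.58. Per the submitters' processing notes the tool was RMA, with no settings given. What the values were divided by is unknown, and RMA, which equalises the arrays, would hide a change common to most genes. Rounding to 2 decimals makes ratios of dim values coarse.

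Symbols came from GEO's platform annotation (41097 with 1 symbol, 1801 with several, 11777 unnamed here), and the gene identifiers of all 10 members carry the same symbols in the current RefSeq table. Log2 differences were computed for the brightest probe set of each gene, with no test, because every group is 1 array, and this number of arrays limits precision. Members and gene lists were chosen with earlier results of these data known. Named genes were all members, DLC1, and members of the lists past 2-fold or with the largest differences. VIM and the other cell type markers, and the housekeeping genes used for centring, were listed too. Alternatives were the mean of all probe sets of a gene, also those under the filter, and 0.1 added before log2. Centring each array on the median level of 8 housekeeping genes was another. Others were cyclic loess (limma 3.58.1 in R 4.3.3), no filter and a size rule of 1.5-fold. Shares of all genes are given for the main setting and the 1.5-fold rule only. Counting was tested on simulated data. Python 3.11.15, numpy and pandas were used.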

Additional observations from a re-analysis of the deposited data

How the results depend on the processing

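With the size rule of 1.5-fold, 2 members were higher and 1 was lower with TGFbeta in the vector arrays, and the TGFbeta response was higher for 1 and lower for 1 in the arrays labelled DLC1. The mean of a gene's probe sets left 1 member higher with TGFbeta in the arrays labelled DLC1, ADAM19, and 0 lower for DLC1 against vector in either state, where ADAM19 gave -0.84 with TGFbeta and -0.93 without. Centring on housekeeping genes moved the median of all genes by 0.12 for DLC1 against vector with TGFbeta and by 0.19 without. For TGFbeta in the arrays labelled DLC1 and in the vector arrays the shifts were 0.04 and 0.12. The median level of 8 genes was subtracted on each array, and it rests on those of middle brightness, HPRT1 among them. These shifts are therefore not the change of the housekeeping genes as a set. The 8 genes' own median differences were -0.01 and -0.02 for DLC1 against vector with and without TGFbeta. With TGFbeta they were -0.03 in the arrays labelled DLC1 and 0.03 in the vector arrays. Under this centring, 2 members were higher with TGFbeta in the vector arrays, with ADAMTS6 at 1.06. For DLC1 against vector 1 was lower in each state, ADAM19, with ADAMTS1 at -0.94 with TGFbeta and ADAMTS6 at -0.96 without. Cyclic loess and 0.1 added before log2 changed no call among the members' 50 differences each, and leaving out the filter changed no count, since all 10 members passed it. Over the 4 settings that change values, 15 of 200 differences of members changed sign, 0 of them past 2-fold in the brightest probe set. For DLC1 against vector without TGFbeta, ADAM9 gave 0.79 with the mean of its probe sets and -0.02 in the brightest. Apart from the construction of each setting, causes were not tested. Values under 0.38 limit what can be said of ADAM12, ADAMTS5 and the untreated ADAM19 array labelled DLC1. No paired analysis was possible because each group has 1 array and the labels give no replicate numbers.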
